A study of Mus musculus with 61 samples.

Results

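The genes described here mark the layers of the cerebral cortex: Cux2 and Rorb for the upper layers, and Fezf2, Bcl11b, Tbr1, Etv1 and Ntsr1 for the deep layers. They are 7 of the 16355 genes that at least 1 probe of the array names, and they are textbook layer genes. Their levels were followed over all 61 brain fractions. A gene was represented by the probe with the highest mean intensity. Rorb had 2 probes and each of the others had 1.

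The brains came from 6 male C57BL/6J mice of 8 weeks, and none was treated. Each frozen brain was cut whole into fractions 1 mm thick, in the sagittal (series S and So), coronal (C and Co) or horizontal (H and Ho) plane, so that a plane is represented by 2 mice, 1 straight and 1 oblique (the series with the letter o). The series hold 9, 10, 13, 16, 6 and 7 fractions in that order, and the numbers run from left to right, from caudal to rostral and from dorsal to ventral. Fractions of the S mouse carry the labels 2 to 10 and are named S1 to S9 here, in unchanged order, after the study's own names. Total RNA of a fraction was hybridized to 1 single-color Agilent whole mouse genome array. A fraction can hold several layers and non-cortical areas, and in such bulk RNA fewer cells of a type and less RNA per cell cannot be told apart.

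The neocortex is built of layers of neurons that differ in their targets. Upper layer neurons connect mostly within the cortex, whereas deep layer neurons send axons to the striatum, thalamus, brainstem and spinal cord. Cux2 and Rorb are transcription factors of the upper layers, Rorb above all of the layer that receives thalamic input. Fezf2 and Bcl11b (Ctip2) act one after the other in neurons that project below the cortex, Tbr1 specifies neurons that project to the thalamus, Etv1 (Er81) marks a class of deep projection neurons, and Ntsr1, a neurotensin receptor, marks neurons that project to the thalamus. Several of these genes are also used elsewhere: Bcl11b in striatal medium spiny neurons, Tbr1 in olfactory bulb projection neurons, Etv1 in cerebellar granule cells and Ntsr1 in midbrain dopamine neurons.

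Levels are given as log2 intensity relative to the 75th percentile of the same array, so that 0 is a probe at that percentile and a difference of 1 is a doubling. They were compared between fractions of 1 gene and never between genes. The 75th percentile lay between 762 and 2061 intensity units, and an array had 57.9% to 73.0% of its probes well above background. The files give 16 slides, mostly with neighboring fractions of a series, and 5 scan days. Lists of regional markers had their highest mean level where the anatomy places them: cerebellar genes in C3, midbrain dopamine genes in C6, striatal genes in Co11, olfactory bulb genes in C13 and excitatory neuron genes of cortex and hippocampus in So2. For tests, 56 fractions form the 28 pairs of like fractions that the study defined, 1 from each mouse of a plane, and 5 fractions (Ho1, So1, Co1, Co13 and Co16) are left without one. The study chose partners by their correlation over all probes, so the spread within pairs is between 2 mice but is not independent of the arrays.

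Cux2, Rorb, Bcl11b, Etv1 and Ntsr1 were well above background in all 61 fractions. Fezf2 and Tbr1 were well above background in 53, and the 8 fractions where each was not were the same for both genes: C1 to C4 and Co2 to Co5, which held the cerebellum and hindbrain. Because Fezf2 and Tbr1 share this limit and were the members most alike over the brain (r = 0.97 over the 61 fractions), the sequences at their starts are shown. They are the RefSeq promoter windows of GRCm38.p6, 300 bases that span the start of the gene, printed 5′ to 3′ with each CG in capitals.
Fezf2, chr14:12345816-12346115, minus strand: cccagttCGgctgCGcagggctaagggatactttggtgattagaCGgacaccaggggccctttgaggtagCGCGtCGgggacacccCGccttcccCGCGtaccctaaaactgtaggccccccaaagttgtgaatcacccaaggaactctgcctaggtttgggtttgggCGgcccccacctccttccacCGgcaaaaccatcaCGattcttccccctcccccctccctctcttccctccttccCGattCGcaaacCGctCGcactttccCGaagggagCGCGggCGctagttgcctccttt
Tbr1, chr2:61804203-61804502, plus strand: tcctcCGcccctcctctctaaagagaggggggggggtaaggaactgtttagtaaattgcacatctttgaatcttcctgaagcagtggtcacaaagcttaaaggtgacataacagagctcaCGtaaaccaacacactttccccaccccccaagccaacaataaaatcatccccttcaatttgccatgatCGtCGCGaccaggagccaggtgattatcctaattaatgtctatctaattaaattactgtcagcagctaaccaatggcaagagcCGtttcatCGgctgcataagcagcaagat
The Fezf2 window held 20 CG, a number reached by 26.5% of the 32851 promoter windows. The Tbr1 window held 7 CG, which is the median of all windows. The windows thus differ in CG content although the profiles were alike, and the counts are a description of these letters alone.

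All 7 genes varied over the 28 pairs (moderated F test in limma, p-values adjusted over all detected probes after Benjamini and Hochberg), as did 61.2% of all probes. F was 99.4 for Tbr1 (adjusted p = 1.15e-19), 86.6 for Fezf2 (6.58e-19) and 40.1 for Bcl11b (1.02e-14). For the other genes it lay between 5.89 for Rorb and 15.8 for Etv1. Over all fractions, the level of Bcl11b spanned 5.44, that of Ntsr1 3.64, that of Rorb 3.28, that of Cux2 3.04 and that of Etv1 2.49 on the log2 scale. The measured values of Fezf2 and Tbr1 spanned 8.98 and 8.37, but their lowest values were not well above background, and with normexp and quantile normalization the spans were 4.61 and 4.20. The order of the spans turned with that method too, since Etv1 (2.73) then had a wider span than Cux2 (2.69) and Rorb (2.50), and Bcl11b (5.20) a wider one than Fezf2 and Tbr1.

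**Figure D1:**
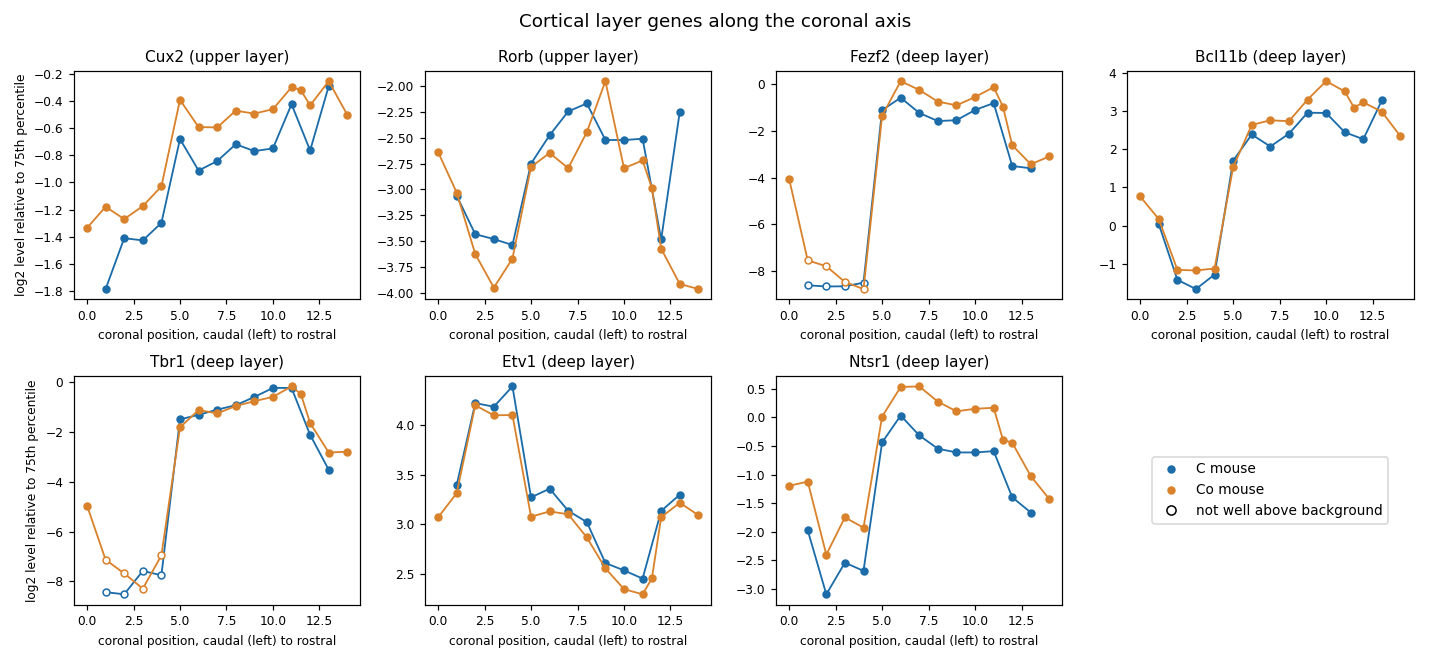
Log2 level (vertical axis, relative to the array's 75th percentile) of the 7 genes in the coronal fractions of the C mouse (blue) and the Co mouse (orange), from caudal to rostral; 1 point is 1 array, partners share a position, the unpaired Co1, Co13 and Co16 stand at 0, between 11 and 12, and at 14, and open points are not well above background. Fezf2, Tbr1, Bcl11b and Ntsr1 rise steeply at position 5, Etv1 falls there, and Cux2 and Rorb span at most 2.01.

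The first comparison asks how the genes differ between fractions that hold cortex and those that hold hindbrain and cerebellum. The 14 arrays of the middle coronal pairs (C5 to C11 and Co6 to Co12) were compared with the 6 arrays of the caudal end (C1 to C3 and Co2 to Co4). Of the 7 genes, 6 were higher in the middle, against 19.6% of all probes, and 1 was lower, against 28.9%. The median difference over all probes was −0.14.

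Fezf2 lay at −1.58, −0.85 and 0.13 (lowest, median and highest of 14 arrays) in the middle pairs, and at −8.67, −8.55 and −7.55 at the caudal end. Tbr1 lay at −1.81, −0.94 and −0.17 in the middle and at −8.52, −7.99 and −7.13 at the caudal end. Neither gene was well above background on any of the 6 caudal arrays, so their folds were computed with substituted levels. On each caudal array the level used was the gene's own value or that of the dimmest probe still well above background, whichever was higher. On this scale Fezf2 was at least 144-fold higher in the middle pairs and Tbr1 at least 122-fold. The tests used the measured differences of 7.46 (adjusted p = 1.00e-23) and 7.05 (3.11e-25), which rest on values not well above background. With normexp and quantile normalization the spans over all fractions were 4.61 and 4.20, so these folds do not carry over to that method.

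Bcl11b, the zinc finger partner of Fezf2 in subcerebral neurons, was detected at the caudal end but was much lower there. It lay at 1.53, 2.68 and 3.78 in the middle pairs and at −1.66, −1.17 and 0.17 at the caudal end, a difference of 3.52 ± 0.15 (SE; 11.5-fold, adjusted p = 1.31e-18). Ntsr1 lay at −0.61, 0.02 and 0.54 against −3.09, −2.19 and −1.12, a difference of 2.05 ± 0.19 (4.15-fold, adjusted p = 2.53e-10). For neither gene did the arrays of the 2 groups overlap. Of the 7 excitatory neuron genes 6 were higher in the middle, of the 8 striatal genes 7 and of the 4 midbrain dopamine genes 2, and none was lower. In the coronal series the dopamine list was highest in C6 and Co7, and Ntsr1 in C6 (0.03) and Co8 (0.54). The part of striatum and midbrain in the Bcl11b and Ntsr1 differences was not tested.

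The upper layer genes moved less. Cux2 lay at −0.91, −0.59 and −0.30 in the middle pairs and at −1.78, −1.34 and −1.17 at the caudal end, so the groups did not overlap, and the difference was 0.77 ± 0.10 (1.71-fold, adjusted p = 7.04e-08). Rorb lay at −2.79, −2.52 and −1.95 against −3.95, −3.46 and −3.03, again without overlap, with a difference of 0.91 ± 0.16 (1.88-fold, adjusted p = 1.82e-05). Both genes thus kept measurable signal in cerebellum and hindbrain. With slides as fixed blocks, the call for Rorb was lost (difference 0.88), and the other 6 calls held.

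Etv1 went the other way. It lay at 2.29, 2.94 and 3.36 in the middle pairs and at 3.31, 4.14 and 4.22 at the caudal end, a difference of −1.06 ± 0.08 (2.09-fold lower in the middle, adjusted p = 1.35e-12), with a small overlap of the groups. Its highest fraction was C4 (4.39) in the C series and Co3 (4.20) in the Co series, which also held high levels of cerebellar genes. At C1, where the mean of the 6 cerebellar genes was 1.21 against 4.17 in C2, Etv1 stood at 3.39 against 4.22 in C2. In Co1 that mean was −0.999 and Etv1 stood at 3.07, and in Co2 the values were 2.55 and 3.31. Etv1 was thus lower in Co2 than in C1 although the cerebellar mean was higher. The part of cerebellar tissue in the Etv1 difference was not tested.

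The unpaired caudal fraction Co1 stood apart from its neighbor Co2 for Fezf2 and Tbr1. Fezf2 was at −4.06 in Co1 and at −7.55 in Co2, and Tbr1 was at −4.95 and −7.13. Both were well above background in Co1 alone of Co1 to Co5. Bcl11b was also higher in Co1 (0.76) than in Co2 (0.17), while Cux2 was at −1.33 and −1.18. The other deep layer genes did not share this: Ntsr1 was at −1.20 in Co1 and −1.12 in Co2, and Etv1 at 3.07 and 3.31. The mean of the 7 excitatory neuron genes was −0.85 in Co1 and −1.11 in Co2, that of the 8 striatal genes 0.57 and −0.06, and that of the 6 olfactory bulb genes −2.68 and −2.84. The mean of the 4 hippocampal genes was −1.78 and −2.41. That of the 5 hindbrain genes was −0.70 and −1.13, and its value in Co1 was the highest of all 61 fractions. Larger differences were found for the 6 cerebellar genes (−0.999 and 2.55) and the 4 midbrain dopamine genes (−1.51 and −2.29). Co1 is 1 array, its values were singled out after they were seen, and the part of other tissue in them was not tested.

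The next comparison sets the same 14 middle arrays against the 2 arrays of the rostral tip (C13 and Co15), which hold the olfactory bulb. Here 3 of the 7 genes were higher in the middle (18.6% of all probes) and 1 was lower (17% of all probes). Fezf2 was at −3.60 in C13 and −3.43 in Co15, below every middle array, with a difference of 2.68 ± 0.31 (6.40-fold, adjusted p = 3.05e-08). Tbr1 was at −3.52 and −2.82 in the tip, a difference of 2.28 ± 0.25 (4.84-fold, adjusted p = 1.68e-08). Ntsr1 was at −1.66 and −1.03, a difference of 1.25 ± 0.30 (2.39-fold, adjusted p = 0.00132).

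Unlike at the caudal end, Fezf2 and Tbr1 were well above background in both fractions of the tip. Etv1 was lower in the middle than in the tip, where it was at 3.30 and 3.22, with a difference of −0.42 ± 0.12 (adjusted p = 0.0080) and with overlap of the groups. Bcl11b was as high in the tip (3.28 and 2.97) as in the upper part of the middle range, and its difference of −0.48 ± 0.23 did not pass the test (adjusted p = 0.115). Cux2 was at −0.29 and −0.26 in the tip, above the highest middle array, with a difference of −0.33 ± 0.15 that did not pass either (adjusted p = 0.0927).

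Rorb differed between the mice in the tip, at −2.25 in C13 and −3.92 in Co15, and its difference of 0.56 ± 0.25 did not pass (adjusted p = 0.0791). With the mouse as a block, Bcl11b (adjusted p = 0.0392), Cux2 (0.0114) and Rorb (0.0410) passed, and Rorb also passed with its other probe (0.68). C13 was scanned on another day and lay on another slide than the rest of its series. With slides as fixed blocks, the Etv1 call was lost (−0.38). Without C13 the Ntsr1 and Etv1 calls were lost (differences 0.94 and −0.38) and Rorb was called (1.39). The Etv1 call was also lost without mouse C or mouse Co (−0.45 and −0.39), Rorb was called without mouse C (1.32), and Bcl11b was called without Co12 (−0.55) or mouse Co (−0.86). Without C13 or either mouse the tip is 1 array, which is assumed to vary like the other pairs. With partners set by fraction number instead of by likeness, none of the 7 genes was called.

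Within the middle coronal pairs, the rostral part (C9 to C11 and Co10 to Co12) was compared with the caudal part (C5 to C7 and Co6 to Co8), 6 arrays each. Of the 7 genes, 2 were higher rostrally (6.9% of all probes) and 1 was lower (6.4%). Bcl11b lay at 2.44, 3.12 and 3.78 rostrally and at 1.53, 2.22 and 2.75 caudally, a difference of 0.98 ± 0.18 (1.97-fold, adjusted p = 0.000187). Tbr1 lay at −0.76, −0.41 and −0.17 against −1.81, −1.28 and −1.10, without overlap, a difference of 0.92 ± 0.19 (1.89-fold, adjusted p = 0.00118).

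Beside the rise of Bcl11b, all 8 striatal genes were higher rostrally, with a median difference of 2.66, and the striatal list and Bcl11b had their highest level of the Co series in the same fraction, Co11. In the C series they did not coincide, with the striatal list highest in C9 and Bcl11b in C13 (3.28). The part of the striatum in the Bcl11b difference was not tested. Of the 7 excitatory neuron genes, 1 was higher rostrally and none was lower. Beside the rise of Tbr1, 3 of the 6 olfactory bulb genes were higher rostrally and 1 was lower (median difference 1.21), among them Sp8 (2.36) and Tbx21 (1.52), and their part in the Tbr1 difference was not tested.

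Etv1 lay at 2.29, 2.49 and 2.61 in the rostral part and at 3.07, 3.13 and 3.36 in the caudal part, without overlap, a difference of −0.71 ± 0.09 (1.64-fold lower rostrally, adjusted p = 2.06e-06). All 6 cerebellar genes were lower rostrally too (median difference −2.11), and their part in the Etv1 difference was not tested. Cux2 (0.14 ± 0.11), Rorb (0.11 ± 0.19) and Fezf2 (−0.11 ± 0.24) did not pass, with 95% intervals of −0.10 to 0.37, −0.27 to 0.50 and −0.59 to 0.37. Ntsr1 (−0.29 ± 0.23, adjusted p = 0.506) passed only with the mouse as a block (0.00315). With slides as fixed blocks, the calls for Bcl11b (1.15) and Tbr1 (0.83) were lost.

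**Figure D2:**
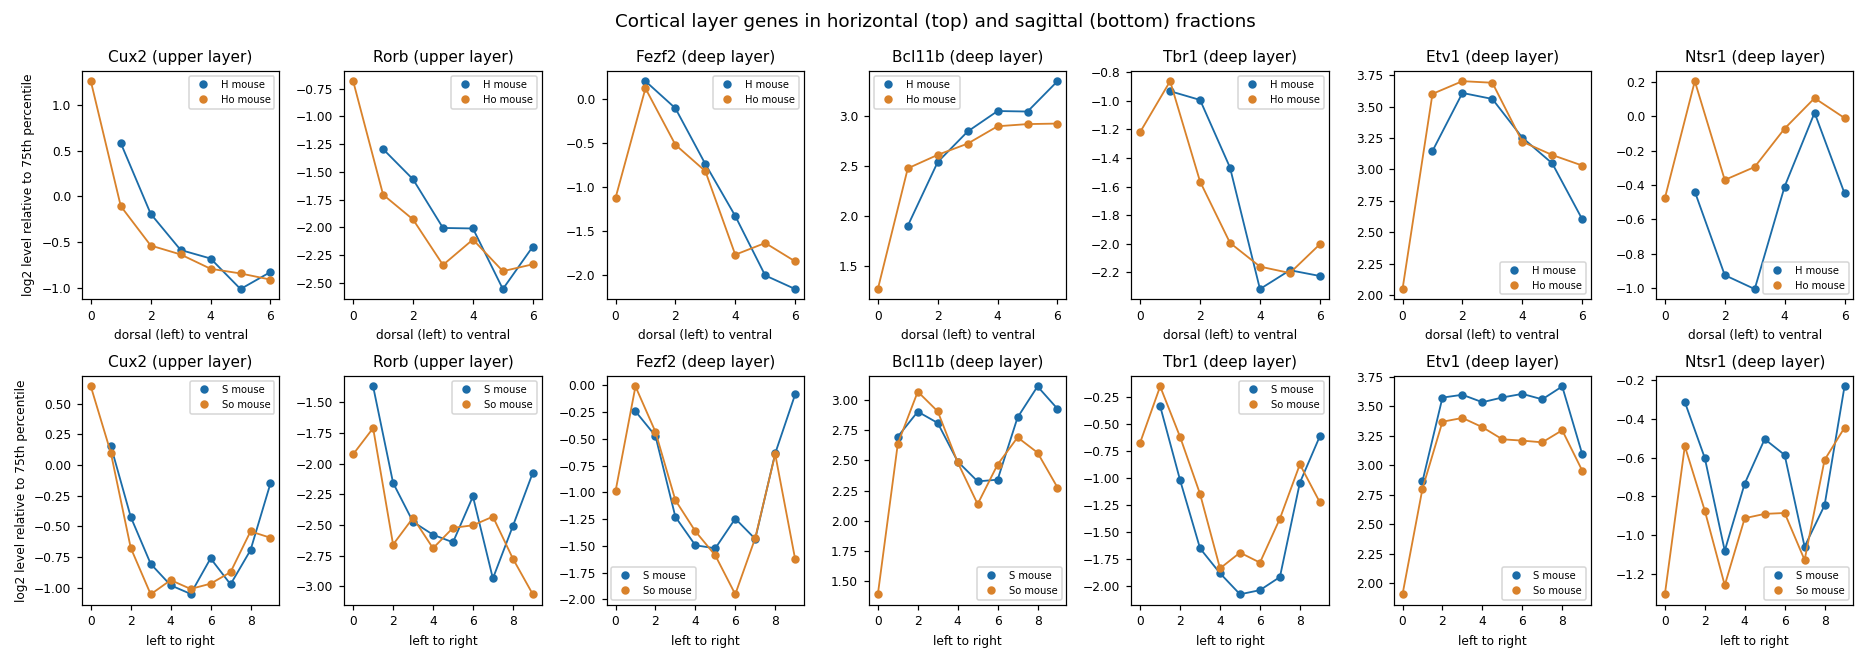
Log2 level (vertical axis, relative to the array's 75th percentile) of the 7 genes in the horizontal fractions from dorsal to ventral (top) and the sagittal fractions from left to right (bottom); blue is the straight and orange the oblique mouse, 1 point is 1 array, and the unpaired Ho1 and So1 stand at 0. Cux2 and Rorb are highest in Ho1, where Fezf2, Bcl11b and Etv1 are lower than in Ho2.

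In the horizontal plane, the dorsal pairs (H1, H2, Ho2 and Ho3), which hold the dorsal cortex, were compared with the ventral pairs (H5, H6, Ho6 and Ho7). Of the 7 genes, 5 were higher dorsally (5.78% of all probes) and 1 was lower (8.45%). The 5 were both upper layer genes and 3 of the deep layer genes.

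Fezf2 was at 0.20 and −0.10 in H1 and H2 and at 0.12 and −0.52 in Ho2 and Ho3, against −2.00, −2.16, −1.63 and −1.84 in the ventral arrays, a difference of 1.83 ± 0.29 (3.57-fold, adjusted p = 2.65e-05). Tbr1 was at −0.93, −0.99, −0.86 and −1.57 dorsally and at −2.19, −2.23, −2.21 and −2.00 ventrally, a difference of 1.07 ± 0.24 (2.09-fold, adjusted p = 0.00183). Cux2 was at 0.58, −0.19, −0.11 and −0.54 against −1.01, −0.83, −0.84 and −0.91, a difference of 0.84 ± 0.14 (1.78-fold, adjusted p = 6.53e-05). For each of these genes the dorsal arrays lay above all ventral arrays in both mice.

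Rorb was at −1.29, −1.57, −1.71 and −1.93 dorsally and at −2.56, −2.17, −2.40 and −2.33 ventrally, a difference of 0.74 ± 0.23 (1.67-fold, adjusted p = 0.0266). Etv1 was at 3.15, 3.61, 3.60 and 3.70 against 3.05, 2.60, 3.11 and 3.03, a difference of 0.56 ± 0.12 (1.48-fold, adjusted p = 0.000737). The 6 cerebellar genes were all higher dorsally as well, by a median of 2.15, and their part in the Etv1 difference was not tested.

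Bcl11b was lower dorsally, at 1.90, 2.54, 2.48 and 2.61 against 3.05, 3.35, 2.92 and 2.93, a difference of −0.68 ± 0.22 (1.60-fold, adjusted p = 0.0313). Of the 8 striatal genes, 7 were lower dorsally and none was higher (median difference −2.18), and their part in the Bcl11b difference was not tested. Ntsr1 (−0.30 ± 0.28, adjusted p = 0.626) passed only with the mouse as a block (0.0114), and its dorsal and ventral arrays overlapped. The midbrain dopamine genes, 3 of 4 of which were lower dorsally, had their highest mean in H5 and Ho6, and Ntsr1 had its highest value of the H series in H5 (0.02). In the Ho series Ntsr1 was highest in a dorsal fraction, Ho2 (0.21), and stood at 0.11 in Ho6.

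The Bcl11b call was lost with scaling to the array median (−0.60), with the authors' normalized values (−0.60) and on leaving out 1 of 6 arrays (H1, H2, H5, H6, Ho3 or Ho6) or any of the mice S, So, H and Ho. The Rorb call was lost with the slide as a random block (0.61) and without H1, H2, H5, Ho6, Ho7 or mouse Ho, and without mouse H only Fezf2 and Etv1 stayed called, with differences of 0.89 for Tbr1, 0.55 for Cux2 and 0.55 for Rorb. With slides as fixed blocks, only Etv1 did, with differences of 1.83 for Fezf2, 1.53 for Tbr1, 0.62 for Cux2 and 0.87 for Rorb.

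In the sagittal plane, the lateral pairs (8 arrays: S1, S2, S8, S9, So2, So3, So9 and So10) were compared with the medial pairs (6 arrays: S4 to S6 and So5 to So7). Of the 7 genes, 3 were higher laterally (9.09% of all probes) and 0 were lower (10.5%). Tbr1 lay at −1.22, −0.75 and −0.15 laterally and at −2.07, −1.86 and −1.69 medially, without overlap, a difference of 1.15 ± 0.18 (2.22-fold, adjusted p = 1.73e-05). Fezf2 lay at −1.63, −0.45 and −0.01 against −1.95, −1.51 and −1.25, with overlap through So10 alone, a difference of 1.01 ± 0.22 (2.01-fold, adjusted p = 0.000974). Cux2 lay at −0.69, −0.48 and 0.16 against −1.05, −0.97 and −0.76, without overlap, a difference of 0.60 ± 0.11 (1.51-fold, adjusted p = 9.19e-05).

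All 7 excitatory neuron genes were higher laterally too, by a median of 1.02. Rorb did not pass (0.24 ± 0.18, adjusted p = 0.411), and its other probe did (0.46). Bcl11b (0.40 ± 0.17, adjusted p = 0.0930), Etv1 (−0.21 ± 0.09, adjusted p = 0.105) and Ntsr1 (0.19 ± 0.22, adjusted p = 0.652) did not pass either. All 3 passed with the mouse as a block (adjusted p = 0.0232, 0.00194 and 0.0260) and with fixed slide blocks, and Bcl11b also did with scaling to the array median (0.51). Without So10, mouse C or mouse Co, Bcl11b was called (0.48, 0.40 and 0.40), and Etv1 was called as lower without S8 (−0.25), So6 or So7 (−0.27 each). Without mouse S the Fezf2 call was lost (0.96).

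Between the left (S1 to S4 and So2 to So5) and the right (S6 to S9 and So7 to So10) pairs, 0 of the 7 genes were called (0.0383% of all probes were higher on the left and 0.0985% lower), and 0 had an unadjusted p below 0.05. The 95% intervals of the difference ran from −0.09 to 0.32 for Cux2, from −0.08 to 0.76 for Fezf2 and from −0.07 to 0.62 for Tbr1. The interval of Fezf2 thus reaches a fold of 1.69.

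**Figure D3:**
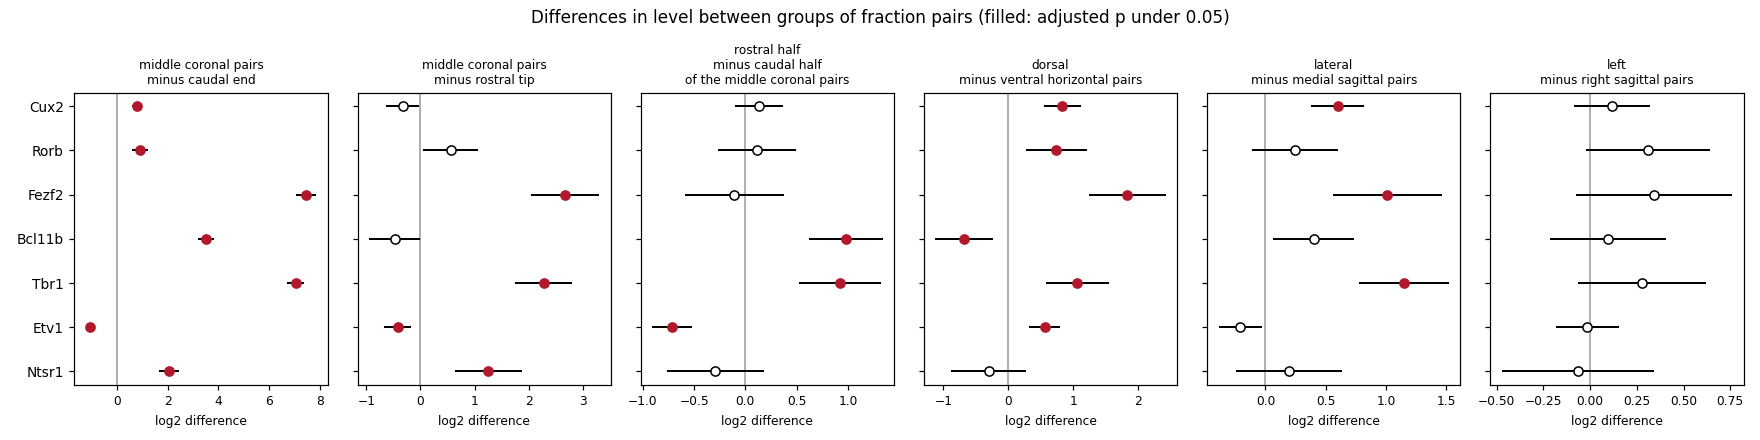
Log2 difference (horizontal axis) of the 7 genes in the 6 comparisons of fraction pairs, with 95% confidence intervals; filled points have an adjusted p below 0.05, and each panel has its own scale. Fezf2 and Tbr1 are higher in the middle than at either coronal end, dorsally and laterally, while Etv1 is lower in the middle than at either coronal end.

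In the outermost dorsal fraction Ho1 the upper layer genes were higher and the deep layer genes lower than in the fraction below it, which was not so in the other 5 outer fractions. Ho1, the dorsal-most slice, has no partner, so it was compared with the next fraction, Ho2, as 1 array against 1, with no test. Cux2 was at 1.26 in Ho1 and −0.11 in Ho2, its highest value of all 61 fractions, and Rorb was at −0.68 and −1.71, its highest too. All 5 deep layer genes were lower in Ho1: Etv1 by 1.55 (2.05 and 3.60), Fezf2 by 1.25 (−1.12 and 0.12), Bcl11b by 1.21 (1.27 and 2.48), Ntsr1 by 0.68 (−0.48 and 0.21) and Tbr1 by 0.36 (−1.22 and −0.86). The median of all probes was higher by 0.12 in Ho1, and 59.3% of probes were higher.

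So1, the outermost slice on the left, showed a like picture against So2. Cux2 was at 0.64 and 0.10, whereas Rorb was slightly lower in So1 (−1.92 and −1.71). The 5 deep layer genes were all lower in So1, by between 0.52 (Tbr1) and 1.25 (Bcl11b), with 45.8% of all probes higher. In the H mouse, which was sliced straight, 49.1% of all probes were higher in H1 than in H2. Both upper layer genes were higher there (Cux2 by 0.77 and Rorb by 0.27), but 3 of the 5 deep layer genes were too, Fezf2 by 0.31.

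The same held in the S mouse, in S1 against S2 and in S9 against S8. Both upper layer genes and Fezf2, Tbr1 and Ntsr1 were higher in the outer fraction, and Bcl11b and Etv1 were lower. Of all probes, 55.1% were higher in S1 and 56.2% in S9. S1 and S2 lay on different slides and were scanned on different days, unlike the fractions of the other outer comparisons. On the right of the So mouse, both upper layer genes were lower in So10 than in So9 (Cux2 by 0.05 and Rorb by 0.29). Of the deep layer genes Ntsr1 alone was higher, against 58.4% of all probes. Opposite movement of the groups was therefore seen in Ho1 and, for Cux2, in So1, and not in all outer slices. The outer slices of the 2 mice of a plane are not alike in depth. Ho2 is the partner of H1 and So2 that of S1, while Ho1 and So1 have none. Between Ho2 and Ho3, each gene differed in the same direction as between H1 and H2. The same was true of So2 and So3 beside S1 and S2. With normexp and quantile normalization each difference between an outermost fraction and the next one inside kept its direction. The other scalings move the genes of an array nearly alike and hardly test this.

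Other layer genes were set beside them. Their lists were chosen with earlier results of these data known, so they are not an independent check of the members. Of 14 further upper layer genes 13 were measured, and 12 of them were higher in Ho1 than in Ho2, by a median of 0.72. Among them were Otof, the synaptic protein otoferlin (by 1.25), Rasgrf2, a Ras exchange factor (by 0.91), and Lhx2, a LIM homeobox factor (by 0.84), while Calb1, the calcium buffer calbindin, was lower (by 0.27). Of 16 further deep layer genes with a value in both fractions 15 were lower, by a median of 0.74. Crym, a thyroid hormone binding protein, was lower by 1.95 and Rprm by 1.39, while Cplx3 (−0.08) and the homeobox gene Otx1 (−0.09) hardly differed. In So1 against So2, 9 of 13 upper layer genes were higher (median 0.20) and 17 of 17 deep layer genes were lower (median −0.87). In H1 against H2, 12 of 13 upper layer genes were higher (median 0.38) and 12 of 17 deep layer genes were lower (median −0.29). Of all probes 49.1% were higher in H1, as were 3 of the 5 deep layer genes described above. The other outer fractions differed from this. In S1 against S2, 10 of 16 further deep layer genes (median 0.06) and 8 of 13 upper layer genes (0.30) were higher. These counts are near the share of all probes, 55.1% (median 0.05). In S9 against S8, 10 of 16 deep (0.17) and 12 of 13 upper layer genes (0.48) were higher, and 56.2% of all probes (0.05). In So10 against So9, 7 of 13 upper (−0.03) and 12 of 17 deep layer genes (−0.25) were lower, while 58.4% of all probes were higher.

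**Figure D4:**
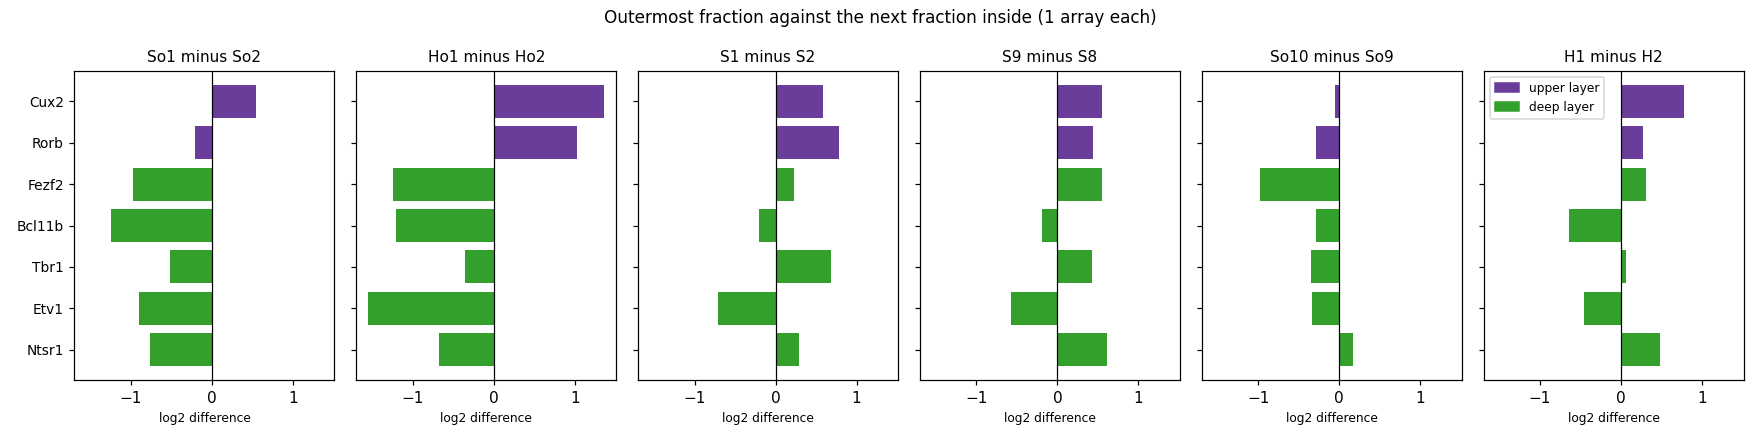
Log2 difference (horizontal axis) between the outermost fraction and the next one inside for the 7 genes, 1 array each and no error bars, for 6 outer faces; purple bars are upper and green bars deep layer genes. In Ho1 both purple bars point right and all 5 green bars point left, which is not so in So1, where Rorb points left, or in S1, S9, So10 or H1.

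Over the pairs, the further layer genes moved as follows. Between the middle and the caudal end, 9 of 13 upper layer genes were higher and 1 was lower, and of the 16 deep layer genes tested 10 were higher and 3 were lower, against 19.6% of all probes higher and 28.9% lower. Crym was 104-fold higher in the middle (adjusted p = 1.34e-27), Lhx2 31.9-fold (3.21e-26) and Cplx3, a complexin of deep cortical neurons, 22.4-fold (9.74e-22). Calb1, which is also abundant in Purkinje cells, was lower in the middle by 1.37. Dorsally, 8 of 13 upper layer genes were higher and 1, Otof, was lower, by 1.07, while 3 of 17 deep layer genes were higher and 3 lower (5.78% and 8.45% of all probes). The median difference was 0.83 for the upper and −0.05 for the deep layer genes, against 0.01 for all probes.

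Laterally, 7 of 13 upper layer genes were higher and none was lower, and 7 of 17 deep layer genes were higher and 4 lower (9.09% and 10.5% of all probes). In the rostral part, 3 upper layer genes were higher and 1 lower, and 2 deep layer genes were higher and 3 lower (6.9% and 6.4% of all probes). Against the rostral tip, 10 upper layer genes were higher and 1 lower, and 5 deep layer genes were higher and 5 lower, among the latter Rprm (−0.96), against 18.6% and 17% of all probes. Between left and right, 0 further layer genes of either group were called. Of the genes with the smallest F in each list, Pou3f2 (F = 1.48, adjusted p = 0.199) did not vary over the pairs by the test, and Syt6 just did (F = 2.04, adjusted p = 0.0498).

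The 2 mice of a plane differed for 5 of the 7 genes, against 63.2% of all probes (limma, model with pairs and mice). In the coronal plane, 26.8% of all probes were higher and 26.7% lower in Co than in C. Ntsr1 was higher in Co by 0.74 ± 0.05 (1.66-fold, in 13 of 13 pairs, adjusted p = 9.07e-13), Fezf2 by 0.54 ± 0.13 (11 of 13 pairs, 0.000734), Bcl11b by 0.39 ± 0.10 (11 of 13, 0.00151) and Cux2 by 0.26 ± 0.06 (13 of 13, 0.000193). Etv1 was lower in Co by 0.13 ± 0.04 (in 13 of 13 pairs, 0.00506). Rorb (−0.27 ± 0.12, higher in Co in 2 of 13 pairs, adjusted p = 0.0563) and Tbr1 (0.20 ± 0.13, in 7 of 13, 0.198) did not pass. The differences and pair counts of Fezf2 and Tbr1 include the pairs of C1 to C4 with Co2 to Co5. In these pairs neither gene was well above background in either mouse.

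In the horizontal plane, where 3.77% of all probes were higher in Ho than in H and 1.59% lower, Ntsr1 was higher in Ho by 0.46 ± 0.07 (6 of 6 pairs, adjusted p = 0.000186) and Etv1 by 0.19 ± 0.05 (5 of 6, 0.0377). In the sagittal plane, where 12% were higher in So than in S and 18.2% lower, Etv1 was lower in So by 0.26 ± 0.04 (9 of 9 pairs, 7.15e-05) and Ntsr1 by 0.18 ± 0.06 (0.0230). Rorb and Tbr1 did not pass the F test over the mice (adjusted p = 0.0828 and 0.284). The 2 mice of a plane also differ in cutting angle, and the pairs are slices of these 2 brains, so the p-values do not extend to other mice. C and Co were scanned on different days, so mouse, cutting angle and scan day cannot be told apart. S2 to S9 were also scanned on another day than So, and only S1 shared the day of So. H and Ho shared their scan day but no slide, so mouse, cutting angle and slide cannot be told apart there. With the slide as a random block, 2 of the 7 genes were called. The Ntsr1 call in the sagittal plane and the Etv1 call in the horizontal plane were lost under each of the other 3 scalings. The former was also lost on leaving out 1 of 6 arrays (differences −0.15 to −0.17), and the latter on leaving out 1 of 8 (0.14 to 0.21).

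Across the 61 fractions, the profiles of Fezf2 and Tbr1 correlated with r = 0.97 (Pearson), and those of Bcl11b with Tbr1 and with Fezf2 with 0.88 and 0.87. These correlations are descriptions: neighboring fractions share tissue and slides, and the coronal ends set much of them. Cux2 and Rorb correlated with each other at 0.61, and with the deep layer genes between −0.59 (Cux2 with Etv1) and 0.66 (Rorb with Fezf2). Etv1 correlated negatively with each of the other 6. In the 13 horizontal fractions, Cux2 and Rorb correlated at 0.97, Cux2 and Bcl11b at −0.96, and Fezf2 and Tbr1 at 0.88. The upper layer genes were thus closer to each other in the horizontal than in the coronal fractions, where r was 0.30.

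Of 15104 other genes, those whose profile was most like that of a member over the 61 fractions were named by r. For Fezf2 they were Tbr1 (0.97), Slc26a4, an anion exchanger (0.96), and Mas1, an angiotensin peptide receptor (0.96). For Tbr1 they were Kcnv1, a silent potassium channel subunit (0.98), Emx2, a homeobox factor of the forebrain (0.98), and Dtl (0.98). For Bcl11b they were Cacna1h, a T-type calcium channel (0.94), Aldh1b1, an aldehyde dehydrogenase (0.94), and Icam5, an adhesion molecule of the telencephalon (0.94).

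The genes most like Etv1 were Lats2, a kinase of the Hippo pathway (0.91), Slc41a3 (0.90) and Cbln1, the cerebellin that organizes synapses of granule cells (0.90). For Ntsr1 they were Slc5a5, the iodide symporter (0.92), Zscan18 (0.90) and Mcph1 (0.90). For Cux2 they were Nectin3, a cell adhesion molecule (0.88), Zbtb17 (0.87) and Crem, a cAMP response factor (0.87), and for Rorb they were Nfyb, a subunit of the NF-Y factor (0.88), Borcs5 (0.84) and Csmd1 (0.83). No upper layer gene of the lists was among the 3 genes most like Cux2 or Rorb.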

How the data were processed

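Spot intensities deposited by the authors came from Agilent Feature Extraction 9.1.3.1, background-subtracted by that software and not normalized between arrays. A second deposited table, with linear intensity for 36558 probes normalized per chip in GeneSpring GX, was an alternative here. That table equals the mean intensity of a probe divided by 1 constant per array. Here, log2 of the deposited intensity was averaged per probe (41174 probes), and the array's 75th percentile was subtracted. Probes well above background on at least 1 array (36558) were tested. RefSeq accessions gave 22944 probes 1 symbol (GRCm38.p6).

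Pairs of fractions were compared by limma 3.58.1 in R 4.3.3 (27 numerator, 28 residual and 1.88 prior degrees of freedom), moderated and with Benjamini-Hochberg adjustment over all tested probes at 0.05. On simulated data of 35984 probes, the dorsal comparison recovered 27% of differences of 0.5 and 47% of differences of 1. Paired fractions of the same mice deviated together (median r = 0.279 over 129 combinations, against −0.026 over 249 of different mice), so values with the mouse as a block stand beside results whose call they change. Named genes are the members, the 3 genes most like each, and from each list up to 4 genes with the largest F and the one with the smallest. Members and lists were chosen with earlier results of these data known. The numbers of arrays and of mice, 2 per plane, limit the precision. Arrays of the same slide deviated together (consensus correlation 0.54) and partners were chosen by likeness. The pair fit takes neither into account, so its p-values do not carry over to other mice. Figures used matplotlib 3.10.9.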

Additional observations from a re-analysis of the deposited data

Results flagged for a closer look

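In each of the S, So, H and Ho series, the end fraction of each gene was checked for a gap to its nearest neighbor in value that is large against the range of the series. Of 28 combinations of gene and series, 5 had such a gap. The rule flags about 1 in 20 among independent values. Slices along an axis and genes of the same array are not independent, so that rate does not apply here. Ho1 was apart in 4 of the 5: highest for Cux2 (1.26, next −0.11) and Rorb (−0.68, next −1.71), and lowest for Bcl11b (1.27, next 2.48) and Etv1 (2.05, next 3.03). So1 was lowest of its series for Etv1 (1.90, next 2.80). Ho1 had the lowest 75th percentile of all arrays, 762 intensity units, and So1 had 972, with 66.3% and 58.8% of probes well above background. Whether the lower signal of these arrays has a part in the values was not tested.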

How the results depend on the processing

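All 7 genes varied over the pairs and 0 differed between left and right under every alternative, except that Fezf2 and Tbr1 were not tested when probes had to be above background on all arrays. Numbers of genes called are given as higher and lower with those reported above in brackets. For the rostral tip (3 and 1), the paired analysis with the mouse as a block gave 4 and 3, fixed slide blocks 3 and 0, and partners by fraction number 0 and 0, where Etv1 turned to 0.0921 without a call. For the rostral part of the middle pairs (2 and 1), the mouse block gave 2 and 2, fixed slide blocks 0 and 1, and partners by number 1 and 1. For the dorsal pairs (5 and 1), the mouse block gave 5 and 2, median scaling and the authors' values 5 and 0, fixed slide blocks 1 and 0, partners by number 2 and 0, and a threshold of 0.01 gave 4 and 0. For the lateral pairs (3 and 0), the mouse block and fixed slide blocks gave 5 and 1, scan day blocks and random slide blocks 4 and 1, normexp 3 and 1, and partners by number 1 and 0. With probes above background on all arrays, 1 gene was higher against the tip, in the rostral part and laterally, and 3 dorsally. The mice differed for 5 genes, for 2 with random slide blocks and for 1 with partners by number. The cause of these changes was not tested, except that the filter removed Fezf2 and Tbr1. The share of all probes called was counted for the reported fits only, not for the alternatives or with an array or mouse left out. A changed count therefore need not be particular to these genes.

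Leaving out 1 array or mouse gave 6 genes higher and 1 lower in each case against the caudal end, 3 to 4 and 0 to 2 against the tip, 2 and 1 in the rostral part, 2 to 5 and 0 to 1 dorsally, 2 to 4 and 0 to 1 laterally, and 5 to 6 between the mice. Against the tip, the lower count fell to 0 without C13 or mouse C and rose to 2 without Co12, and laterally it rose to 1 without S8, So6 or So7. Dorsally, the higher count fell to 2 without mouse H, and the lower count to 0 without H1, H2, H5, H6, Ho3 or Ho6 or the mice S, So, H or Ho. The mouse block changed no other count. Spans over the 61 fractions shrank with normexp and quantile normalization to 4.61 for Fezf2, 4.20 for Tbr1, 2.69 for Cux2, 2.50 for Rorb and 3.14 for Ntsr1 and grew to 2.73 for Etv1, whose span was 2.30 with median scaling and 2.27 with the authors' values. The correlation of a profile with the one reported was lowest for Fezf2 with that method (r = 0.968 over 61 fractions). Signal over background limits Fezf2 and Tbr1 at the caudal end, where a fold from substituted levels replaces a measured one.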
